A study of Mus musculus with 10 samples.

Results

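A set of 10 genes that mark fibroblasts and their extracellular matrix was followed through a set of mouse embryonic stem (ES) cell arrays: Col1a1, Col1a2, Col3a1, Lum, Dcn, Postn, Thy1, Vim, S100a6 and Fn1. They were taken by name, as every probe that the array files assign to one of them, which gave 10 probes for 10 genes out of 39429 probes for 31660 genes. All 10 were well above background in 20 of 20 channels, were never saturated, and were among the 20622 genes tested. ES cells are commonly grown on a layer of growth-arrested fibroblasts, the feeders. The genes were chosen as a possible readout of feeder RNA left in the ES cell preparations or of ES cells with mesenchymal features. The probes do not separate these sources from each other, or from ordinary expression of the genes by ES cells. In bulk RNA, fewer cells of a type and less RNA per cell cannot be told apart.

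The cells lacked both Tet1 and Tet2 (DKO), Tet2 alone (T2KO), Tet1 alone (T1KO) or neither (WT). Tet1 and Tet2 are dioxygenases that oxidise 5-methylcytosine in DNA. There were 4 DKO lines (51 and 61 male, 60 and 59 female), 1 T2KO line (16, male), 2 T1KO lines (99 and 65, both male) and 4 WT lines (6 and 92 male, 7 and 94 female), all of mixed C57BL/6 background. Every line, WT included, was cultured with LIF on irradiated feeders, and the cells were preplated on gelatin to take the feeders off before RNA was isolated. On 10 two-colour arrays, DKO or T2KO RNA was in the red dye (Cy5) and WT or T1KO RNA in the green dye (Cy3), with lines of the same sex on an array. The pairs were DKO 51 with WT 6 (2 arrays), DKO 61 with WT 92 (1 array), DKO 60 with WT 7 (1 array), DKO 59 with WT 94 (2 arrays) and T2KO 16 with T1KO 65 (2 arrays), and T1KO 99 was on 2 arrays opposite a sample left out by the labels because its genotype was false. No dye was swapped, so dye and genotype cannot be told apart, and the male DKO, female DKO and single-knockout arrays each filled a slide of their own, so sex and slide cannot be told apart either. A line is 1 derivation, and the labels do not say whether repeat arrays came from separate cultures, so p-values measure the spread between lines.

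The targeted genes were checked in every line. Tet1 levels were 10.52 to 11.07 (normalized log2 intensity) in the 6 lines in which it was targeted and 12.78 to 13.12 in the other 5, and Tet2 levels were 9.40 to 10.12 in its 5 targeted lines and 11.43 to 12.05 in the other 6. The ES cell factors Pou5f1 (15.17 to 15.72), Sox2 (12.08 to 12.88) and Nanog (15.10 to 15.96) were well above background in all 20 channels. ES cell genes and fibroblast matrix genes were therefore both measured in every line.

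Fibrillar collagens are the main load-bearing proteins of connective tissue. Type I collagen is built from the chains encoded by Col1a1 and Col1a2, and type III collagen, encoded by Col3a1, is assembled into the same fibrils. Lumican (Lum) and decorin (Dcn) are small leucine-rich proteoglycans that coat collagen fibrils, periostin (Postn) is a matricellular protein secreted by fibroblasts, and fibronectin (Fn1) is the matrix glycoprotein to which many cells attach through integrins. Thy1 is a surface glycoprotein of fibroblasts and of thymocytes, vimentin (Vim) the intermediate filament protein of mesenchymal cells, and S100a6 (calcyclin) a small calcium-binding protein abundant in fibroblasts. Each level below rests on a single 60-base probe, placed on mm9 by the array design with no exon annotation used here, and the first 30 bases of 4 probes are shown to identify what was read. Col1a1 (chr11:94813115-94813174, plus strand of mm9) and Lum (chr10:97035210-97035269, plus strand) stand for the genes that varied together, and S100a6 (chr3:90418160-90418219, plus strand) and Fn1 (chr1:71632116-71632175, minus strand) for those that correlated less with them.
Col1a1 probe: tgaccaactgaacgtgaccaaaaaccaaaa
Lum probe: taagcatttgcacggttacttagtgaaact
S100a6 probe: taacaaggatcaggaagtaaacttccagga
Fn1 probe: ggtgattatttttataagcacatgccaacg

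The 250 bases before the RefSeq start (GRCm38.p6) were held for 5 of the 10 genes in the promoter table used, and 2 of them are printed because one gene belonged to the group that varied together and the other was the only member called in DKO over WT. CCAAT, which CCAAT-binding factors recognise, GGGCGG, a core of Sp1 sites, TATAAA and TGANTCA, the AP-1 motif, were searched on both strands. The shares of all 32851 promoter windows of this length that held them were 33.8% for CCAAT, 32.7% for GGGCGG, 12.4% for TATAAA and 6.75% for TGANTCA. In the Col1a2 window (chr6:4505368-4505617, plus strand) CCAAT began 109 bases before the start and GGGCGG 205 and 188 bases before it. The S100a6 window (chr3:90612644-90612893, plus strand) held CCAAT on the opposite strand, 228 bases before the start. Capitals mark the matches, which are letters in a window and not shown binding sites.
Col1a2 promoter: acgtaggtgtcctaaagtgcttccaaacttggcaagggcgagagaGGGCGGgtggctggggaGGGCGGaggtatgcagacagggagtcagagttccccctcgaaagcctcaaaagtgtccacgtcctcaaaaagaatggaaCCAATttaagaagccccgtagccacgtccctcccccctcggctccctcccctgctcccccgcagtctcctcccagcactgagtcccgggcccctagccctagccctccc
S100a6 promoter: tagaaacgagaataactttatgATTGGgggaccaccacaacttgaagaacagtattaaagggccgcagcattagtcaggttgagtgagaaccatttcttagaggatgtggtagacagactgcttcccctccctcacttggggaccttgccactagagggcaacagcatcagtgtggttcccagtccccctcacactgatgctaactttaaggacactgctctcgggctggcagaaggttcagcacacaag
Of the other windows, Col3a1 held TATAAA 117 bases before its start, Vim held TATAAA at 32 bases and CCAAT at 196 and 94 bases, and 1 of the 2 Postn windows held TATAAA at 26 bases. None of the 6 windows matched TGANTCA.

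The collagen genes varied over a range of about 1 log2 unit between lines, with lines of different genotype interleaved. Col1a1 had levels of 12.90, 13.03, 13.52 and 13.40 in DKO 51, 61, 60 and 59, 12.88 in T2KO 16, 13.37 and 12.98 in T1KO 99 and 65, and 12.99, 13.75, 12.70 and 13.59 in WT 6, 92, 7 and 94. WT lines held both the highest (WT 92) and the lowest level (WT 7), and the DKO lines lay between them. Col1a2 had levels of 13.87, 14.05, 14.37 and 14.31 in the DKO lines, 13.67 in T2KO 16, 14.18 and 13.85 in the T1KO lines, and 14.03, 14.67, 13.46 and 14.38 in the WT lines, in the same order of lines. Again WT 92 was highest and WT 7 lowest. Col3a1 had levels of 10.97, 11.21, 11.96 and 11.48 in the DKO lines, 11.09 in T2KO 16, 11.69 and 11.08 in the T1KO lines, and 11.23, 11.85, 10.90 and 11.79 in the WT lines. DKO 60 was the highest line for Col3a1 and WT 7 the lowest, and the groups overlapped.

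The collagen-coating proteoglycans spread over more than the collagens did. Lum had levels of 7.82, 8.16, 9.13 and 8.80 in DKO 51, 61, 60 and 59, 7.74 in T2KO 16, 8.15 and 7.76 in T1KO 99 and 65, and 7.84, 8.38, 7.44 and 8.33 in WT 6, 92, 7 and 94. The female DKO lines were the 2 highest of all 11 lines, and the male DKO lines lay within the WT range. Dcn had levels of 10.19, 10.37, 11.24 and 10.95 in the DKO lines, 9.86 in T2KO 16, 10.42 and 10.10 in the T1KO lines, and 10.22, 10.82, 9.62 and 10.80 in the WT lines. Its 2 highest lines were again DKO 60 and DKO 59 and its lowest WT 7. Postn had levels of 9.85, 10.13, 10.72 and 10.52 in the DKO lines, 9.66 in T2KO 16, 10.10 and 9.69 in the T1KO lines, and 9.81, 10.46, 9.57 and 10.46 in the WT lines. By line means, the order at its top was that of Lum and Dcn: DKO 60, DKO 59, WT 92 and WT 94.

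The cell-surface and cytoskeletal members followed in part. Thy1 had levels of 12.50, 12.54, 13.28 and 13.11 in DKO 51, 61, 60 and 59, 12.73 in T2KO 16, 13.17 and 12.60 in T1KO 99 and 65, and 12.69, 12.97, 12.37 and 13.09 in WT 6, 92, 7 and 94. DKO 60 was highest and WT 7 lowest, with T1KO 99 in the second place by its mean only. Vim had levels of 14.08, 13.90, 14.98 and 14.67 in the DKO lines, 14.30 in T2KO 16, 14.71 and 14.48 in the T1KO lines, and 14.34, 14.90, 14.65 and 14.99 in the WT lines. WT 7, at the bottom for 7 of the other members, stood sixth of 11 for Vim, and DKO 61 was lowest.

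S100a6 and Fn1 had patterns of their own. S100a6 had levels of 14.50, 15.31, 14.95 and 14.91 in DKO 51, 61, 60 and 59, 14.54 in T2KO 16, 15.52 and 15.49 in T1KO 99 and 65, and 15.39, 15.99, 15.35 and 15.56 in WT 6, 92, 7 and 94. By their means, all lines read in Cy5 lay below all lines read in Cy3. The DKO and WT lines did not overlap, as held for 13.5% of all genes tested, though DKO 61 and WT 7 were too close to be ordered. Fn1 had levels of 15.66, 15.12, 15.13 and 15.02 in the DKO lines, 16.02 in T2KO 16, 15.40 and 15.18 in the T1KO lines, and 15.52, 15.75, 15.46 and 15.45 in the WT lines. T2KO 16 was the highest line and 3 of the 4 DKO lines were the lowest, while DKO 51 stood within the WT range.

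**Figure D1:**
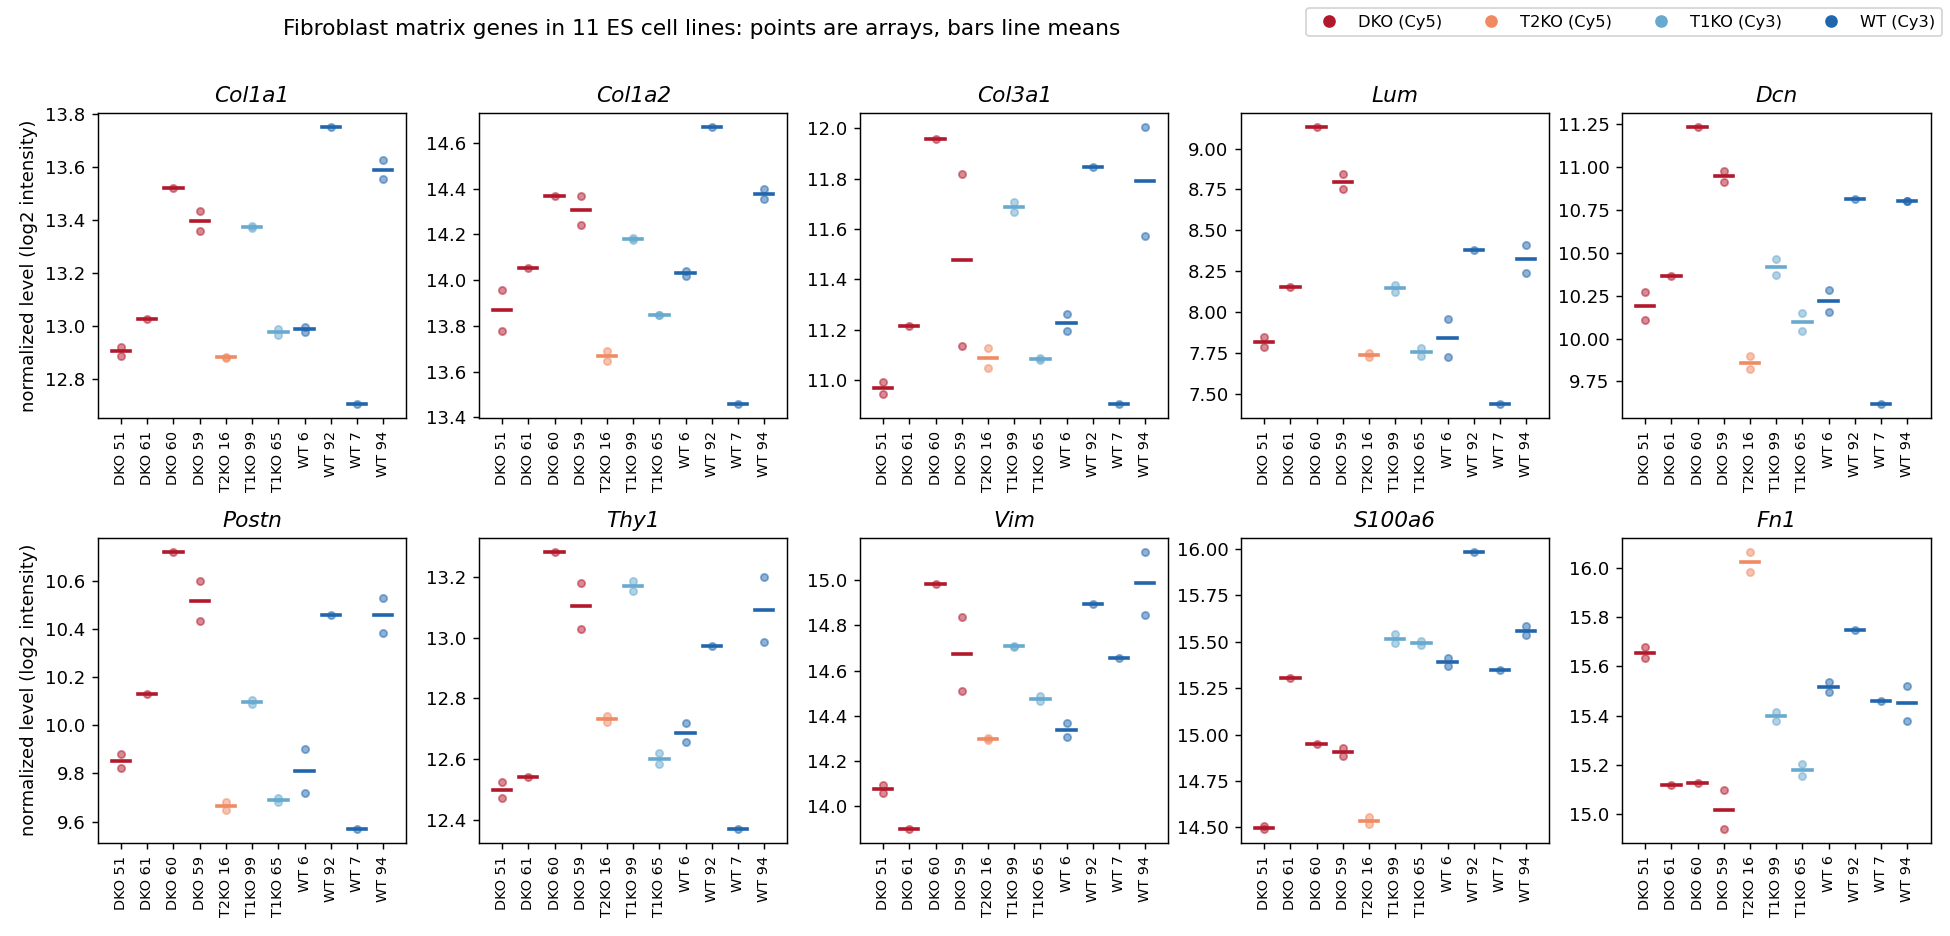
Normalized level (log2 intensity, vertical axis, scaled separately for each gene) of the 10 genes in each line, with DKO, T2KO, T1KO and WT from left to right; points are arrays and bars are means over the arrays of a line. WT 7 is the lowest line for Col1a1, Col1a2, Col3a1, Lum, Dcn, Postn and Thy1, and the DKO and WT lines separate only for S100a6 (14.50 to 15.31 in DKO, 15.35 to 15.99 in WT).

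Repeat arrays gave the error of these values within a line. The log2 ratios of repeat arrays differed by at most 0.25 (Col3a1, DKO 59 over WT 94). Single-channel levels of repeat arrays repeated less well on the female slide, where Col3a1 differed by 0.68 between the 2 arrays of DKO 59 and by 0.43 between those of WT 94. In the other lines with 2 arrays, no member's levels differed by more than 0.23. Lines closer in level than the repeats of their slide cannot be ordered. On the female slide this held for Col3a1, where 1 array of WT 94 read 12.01 and thus more than DKO 60 (11.96), the line with the highest mean. DKO 60 and WT 92 for Col3a1, and WT 92 and WT 94 for Lum, Dcn and Postn, were likewise too close to be ordered. So were DKO 61 (15.306) and WT 7 (15.349) for S100a6, for which the 2 arrays of WT 94 read 15.585 and 15.535.

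In DKO over WT, a ratio measured within arrays, S100a6 was the only one of the 10 genes past the threshold. Over all 20622 genes, limma with Benjamini-Hochberg adjustment at 0.05 called 929, or 4.5% (575 higher and 354 lower in DKO), so 1 of 10 is near that background. S100a6 was lower in DKO in 4 of 4 pairs, with log2 ratios of -0.89 for DKO 51 over WT 6, -0.68 for DKO 61 over WT 92, -0.40 for DKO 60 over WT 7 and -0.65 for DKO 59 over WT 94. The mean was -0.66 (SE 0.0926, n = 4 pairs, 1.58-fold lower, limma adjusted p = 0.0340). The call was lost when any 1 pair was left out (adjusted p = 0.0687 to 0.170), with the scanner software's own ratios (-0.54, adjusted p = 0.0760) and with sex as a covariate (-0.66, adjusted p = 0.0590). The ratio without 1 pair was -0.74 to -0.58, and without 1 pair or with the covariate 0 of all genes were called. With median centring in place of the intensity-dependent loess step the S100a6 ratio was -0.08 (adjusted p = 0.458), on a scale where the median of all genes stood at 0.20 and that of the 567 genes of like brightness at 0.51. On the T2KO over T1KO arrays the S100a6 ratio was -0.96. On the T1KO 99 arrays the excluded Cy5 sample, whose genotype was false, was at -0.04 against T1KO 99, with a level of 15.47. Without a dye swap, dye and genotype cannot be told apart in the DKO over WT value.

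For the other 9 genes no difference between DKO and WT was detected with 4 pairs. The log2 ratios were -0.05 for Col1a1 (SE 0.248), 0.02 for Col1a2 (SE 0.249), -0.04 for Col3a1 (SE 0.288), 0.48 for Lum (SE 0.331), 0.32 for Dcn (SE 0.345), 0.23 for Postn (SE 0.248), 0.08 for Thy1 (SE 0.229), -0.31 for Vim (SE 0.213) and -0.31 for Fn1 (SE 0.135). Their limma adjusted p-values ran from 0.217 for Fn1 to 0.975 for Col1a2. The small means of the collagens came from pairs that moved opposite ways. Ratios of Col1a1 on the log2 scale were -0.08, -0.73, 0.82 and -0.19 in DKO 51 over WT 6, DKO 61 over WT 92, DKO 60 over WT 7 and DKO 59 over WT 94. Dcn had -0.03, -0.45, 1.62 and 0.14 in the same pairs, and Lum -0.02, -0.22, 1.70 and 0.47. Without DKO 60 over WT 7 the Lum ratio was 0.08 and the Dcn ratio -0.11, and Col1a2, Thy1 and Postn also turned negative (-0.28, -0.20 and -0.08), none of them past the threshold.

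The ratios of most of these genes differed widely between pairs. The SD of the 4 DKO over WT log2 ratios was 0.90 for Dcn, 0.861 for Lum, 0.745 for Col3a1, 0.642 for Col1a2, 0.639 for Col1a1 and Postn, 0.588 for Thy1 and 0.543 for Vim. These 8 values stood at the 93.2nd to 98.4th percentile of all genes tested, whose median SD was 0.174. For Fn1 the SD was 0.326 (percentile 79.1), and for S100a6, the called gene, it was 0.200 (percentile 57.4).

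Among the DKO over WT pairs, the medians farthest from 0 were those of 2 pairs. In DKO 60 over WT 7 the median log2 ratio of the 10 genes was 0.91, with 8 of 10 above 0: Lum was 3.24-fold and Dcn 3.07-fold higher in DKO 60, Postn 2.22-fold, Col3a1 2.07-fold, Thy1 1.89-fold, Col1a2 1.88-fold, Col1a1 1.76-fold and Vim 1.26-fold, while Fn1 (-0.33) and S100a6 (-0.40) were below 0. In DKO 61 over WT 92 all 10 were below 0, with a median of -0.62 and Vim 2.00-fold and Col1a1 1.65-fold lower in DKO 61. The medians of all genes in these pairs were 0.01 and 0.01, and 51.8% and 51.7% of all genes were above 0. Each of the 2 pairs was read on 1 array, so their ratios have no repeat. In DKO 51 over WT 6 and DKO 59 over WT 94, with 2 arrays each, the medians were -0.12 and -0.13. There 2 and 4 of 10 genes were above 0, against 53% and 52% of all genes.

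**Figure D2:**
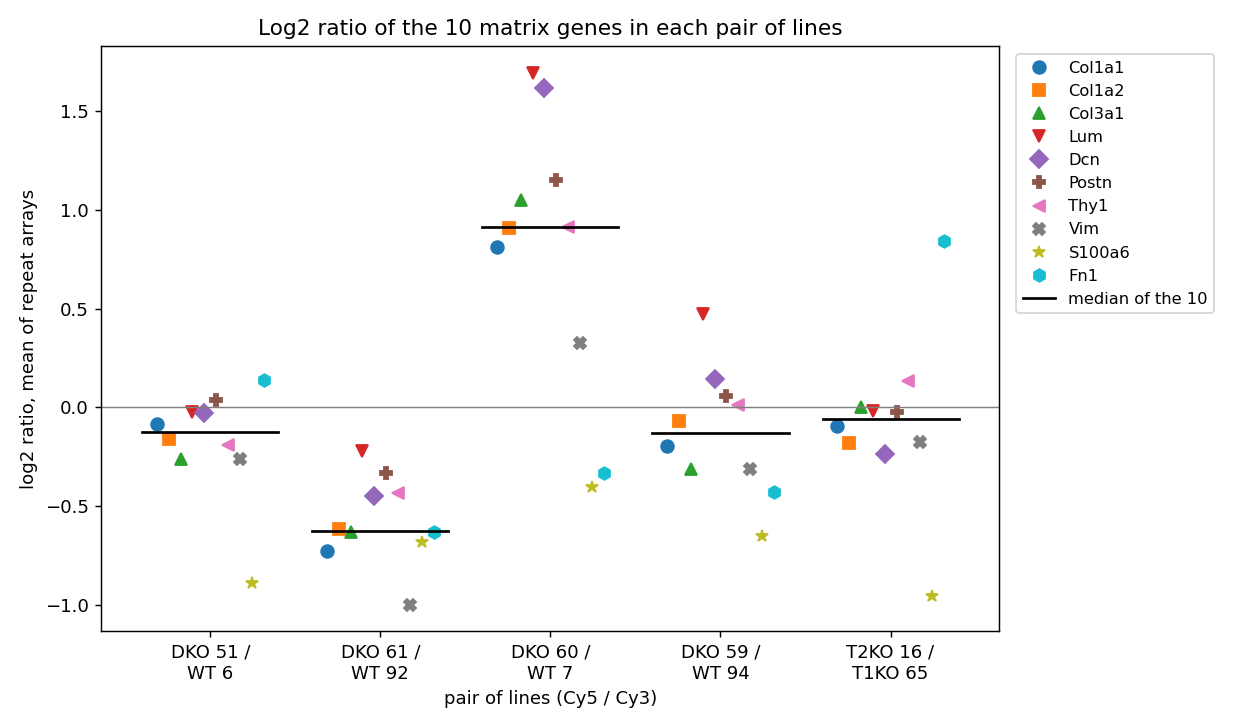
Log2 ratio (Cy5 over Cy3, vertical axis, mean of repeat arrays) of each gene in the 4 DKO over WT pairs and in T2KO 16 over T1KO 65; the black bar is the median of the 10 genes. The median is 0.91 in DKO 60 over WT 7 and -0.62 in DKO 61 over WT 92, and S100a6 lies below 0 in all 5 pairs.

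Female and male pairs differed in sign for some members, but not past the test. The female minus male difference of the DKO over WT log2 ratio was 1.21 for Lum (SE 0.440), 1.12 for Dcn (SE 0.538), 0.82 for Col3a1, 0.81 for Col1a2, 0.77 for Thy1, 0.75 for Postn, 0.72 for Col1a1, 0.64 for Vim, 0.26 for S100a6 and -0.14 for Fn1. The limma adjusted p was 0.828 for the first 9 and 0.944 for Fn1, and over all genes 0 (0%) were called (1064 at an unadjusted p under 0.05). These differences rest in large part on 1 array: without DKO 60 over WT 7 they were 0.59 for Lum, 0.38 for Dcn, 0.13 for Col3a1, 0.32 for Col1a2, Thy1 and Vim, 0.20 for Postn, 0.21 for Col1a1, 0.13 for S100a6 and -0.19 for Fn1.

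For the collagens and proteoglycans, log2 ratios of T2KO 16 over T1KO 65 ran from -0.24 (Dcn) to 0.0048 (Col3a1). On the log2 scale, T2KO over T1KO was 0.0048 for Col3a1, -0.02 for Lum and Postn, -0.10 for Col1a1, 0.13 for Thy1, -0.18 for Col1a2 and Vim and -0.24 for Dcn, and the median of the 10 was -0.06. The 2 genes that departed were Fn1, at 0.85 (1.80-fold higher in T2KO 16, adjusted p = 0.358), and S100a6, at -0.96 (1.94-fold lower, adjusted p = 0.264). In this limma fit, which takes the spread of the single pair from the DKO over WT pairs, 0 (0%) of all genes were called (2691 at an unadjusted p under 0.05).

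T1KO and male WT lines were compared within Cy3. The 2 groups lay on different slides, so slide and genotype cannot be told apart in this comparison. The T1KO minus male WT log2 differences ran from -0.35 (Fn1) to 0.06 (Thy1), with -0.19 for Col1a1, -0.34 for Col1a2, -0.15 for Col3a1, -0.16 for Lum, -0.26 for Dcn, -0.24 for Postn, -0.18 for S100a6 and -0.03 for Vim. Fn1 was at 15.40 and 15.18 in T1KO 99 and 65, against 15.52 and 15.75 in WT 6 and 92. It was the only member whose 2 groups of lines did not overlap, as did not 49.2% of all genes, and its adjusted p was 0.355. In limma 0 (0%) of all genes were called (2819 at an unadjusted p under 0.05). The 2 T1KO lines themselves differed: T1KO 99 was above T1KO 65 by 0.61 for Col3a1, 0.57 for Thy1, 0.41 for Postn, 0.40 for Col1a1 and 0.39 for Lum, and by 0.03 for S100a6. The excluded sample, read in Cy5, was above every WT line for 9 of the 10 genes, as was the case for 30.2% of all genes.

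Across the 11 lines 7 of the genes varied together. Col1a1, Col1a2, Col3a1, Lum, Dcn, Postn and Thy1, grouped here after their values were seen, had Pearson correlations of 0.78 to 0.98 over the 21 pairs of genes (median 0.89). The closest were Dcn and Postn at 0.98, and the type I collagen chains Col1a1 and Col1a2 reached 0.96. The lines share arrays, dyes and slides, so these coefficients are descriptions. Without WT 92 and DKO 60, the lines farthest from the median, the median was 0.90, with levels centred within each dye it was 0.93, and within the dyes it was 0.95 (5 lines in Cy5) and 0.97 (6 lines in Cy3). Vim followed less closely, with a median of 0.58 against the 7, or 0.76 centred within dye, 0.84 within Cy5 and 0.68 within Cy3.

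S100a6 and Fn1 correlated less with the group over all 11 lines. S100a6 had a median correlation of 0.19 with the other 9 genes (-0.14 to 0.45), which was 0.57 when levels were centred within each dye, 0.42 within Cy5 and 0.75 within Cy3. Within Cy3 it reached 0.83 with Col1a1 and 0.84 with Col1a2. Fn1 had a median of -0.23 with the 8 members other than S100a6 (-0.50 with Lum). Its sign differed between dyes, at -0.78 over the 5 lines in Cy5 and 0.48 over the 6 lines in Cy3.

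**Figure D3:**
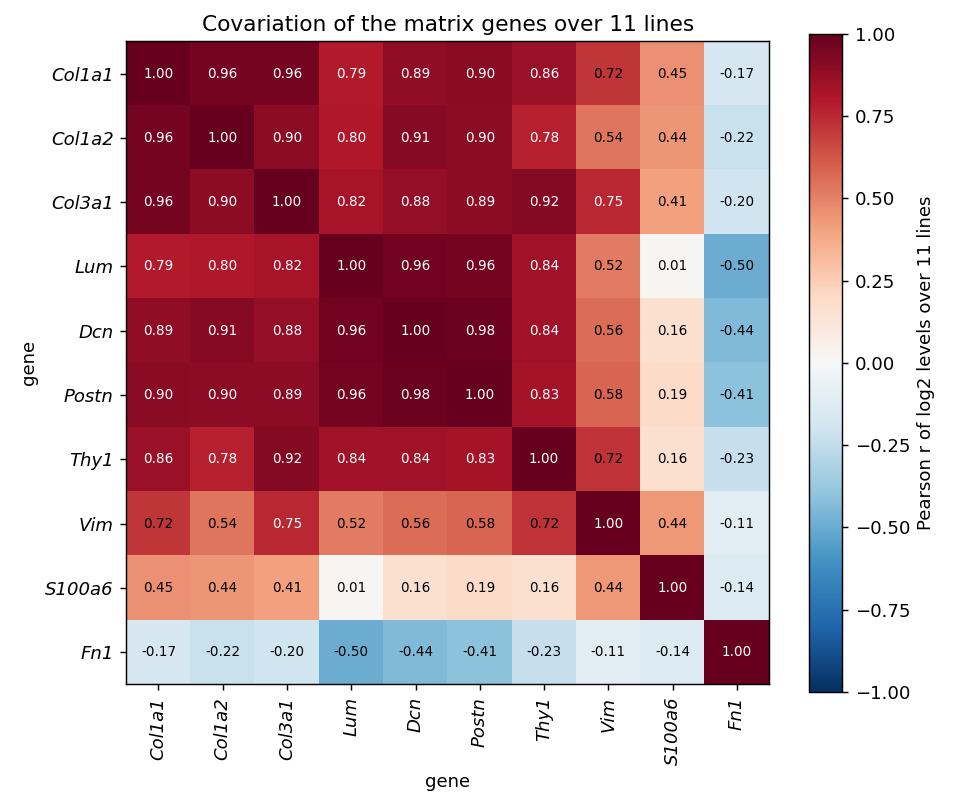
Pearson correlation of normalized log2 levels over the 11 lines for every pair of the 10 genes (colour scale from -1 to 1, values printed). The collagens, proteoglycans, Postn and Thy1 form a block of 0.78 to 0.98, Vim reaches 0.52 to 0.75 with them, and Fn1 is negative with every other gene.

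The mean of the 10 genes, each centred on its own mean over lines, did not sort the lines by genotype. It was 0.42 in WT 92, 0.40 in DKO 60, 0.31 in WT 94, 0.18 in DKO 59, 0.14 in T1KO 99, -0.13 in WT 6, -0.15 in DKO 61, -0.21 in T1KO 65, -0.28 in T2KO 16, -0.30 in DKO 51 and -0.38 in WT 7. It ran from -0.30 to 0.40 over the DKO lines and from -0.38 to 0.42 over the WT lines. The widest gap in this mean of 10 genes lay between 2 WT lines, WT 92 and WT 7. WT 92 and DKO 60 differed little and were each read on 1 array. S100a6 and Fn1, which correlated less with the group, were higher in WT 92 (15.99 and 15.75) than in DKO 60 (14.95 and 15.13). For Col3a1, Lum, Dcn, Postn and Thy1 the highest line was DKO 60.

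The tested genes outside the 10 that were most like this mean over the 11 lines were Pappa (r = 0.98), Cav2 (0.97), Sod3 (0.97), Ccl7 (0.96), Ifi202b (0.96), Ptx3 (0.96), Zbtb4 (0.96), Col5a2 (0.96), Lhfp (0.95) and S100a4 (0.95). Of all 20622 genes, 0.281% had r above 0.9. Pappa is a secreted metalloproteinase that cleaves IGF-binding proteins, Cav2 a caveolar membrane protein, Sod3 the extracellular superoxide dismutase, Ccl7 a chemokine and Ptx3 a secreted pentraxin. Col5a2 encodes a chain of type V collagen, a minor fibrillar collagen, and S100a4, a calcium-binding protein, is also known as fibroblast-specific protein. In DKO 60 over WT 7 these genes had log2 ratios of 0.45 (Cav2) to 1.32 (Ccl7). Col5a2 was well above background in 17 of 20 channels and the other 9 in all 20.

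Further lists of genes were set beside the 10. Their counts of genes called in DKO over WT are to be read against 4.5% of all genes called. Of 33 other fibroblast and myofibroblast markers tested, 0 were called in DKO over WT, and their median log2 ratio was 0.08, against 0.02 over all genes. In DKO 60 over WT 7, 31 of the 33 were above 0, against 51.8% of all genes, with a median of 0.61. The pair was read on 1 array, so these signs are not separate observations. In that pair Mgp, the matrix Gla protein that inhibits calcification, was at 1.68. Ly6a, a surface protein also called Sca-1, was at 1.41, and Prrx1, a homeobox factor of limb mesenchyme, at 1.32 (0.61 in its other probe). The list was well above background in all 20 channels for 32 of its 33 genes. Its mean centred level ran from -0.23 to 0.25 over the DKO lines, was -0.40 in T2KO 16, ran from -0.04 to 0.13 over the T1KO lines and from -0.44 to 0.40 over the WT lines, with WT 7 lowest and WT 92 highest, as for the 10 genes (r = 0.90 over 11 lines).

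Other matrix genes had smaller medians in DKO 60 over WT 7. Of 22 other collagens and matrix glycoproteins 0 were called, and the median was 0.03 over the 4 pairs and 0.37 in DKO 60 over WT 7. In that pair Fbln5, an elastic fibre protein, was at 1.15 and Col12a1, a fibril-associated collagen, at 0.96, while Lama1, a laminin chain of basement membranes, was at -1.16. Of 21 enzymes and chaperones of collagen making 0 were called (median -0.04, and 0.08 in DKO 60 over WT 7), with Loxl1, a lysyl oxidase, at 0.92 in DKO 60 over WT 7 and both Pcolce, the procollagen C-proteinase enhancer, and Plod1, a lysyl hydroxylase, below 0 (-1.15 and -0.80). Of 11 collagen and fibronectin receptors 0 were called (median 0.13, and 0.19 in DKO 60 over WT 7). In that pair Cd44, the hyaluronan receptor, was at 0.73 (0.99 and 0.55 in its other probes), Ddr2, a collagen-binding kinase, at 0.73 (0.35 in its other probe) and Itga11, a collagen-binding integrin chain, at 0.52.

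Regulators of epithelial-mesenchymal transition went with the 10 genes (r = 0.90 over 11 lines for the mean of 9 genes, of which 3 are also among the fibroblast markers), and 0 of the 9 were called. The list was highest in DKO 59 and lowest in T2KO 16. In DKO 60 over WT 7 its median was 0.24, Twist2, a helix-loop-helix factor, was at 0.69 and Foxc2, a forkhead factor, at 0.36, while Snai1, Snai2 and Cdh2 were at 0.06, 0.07 and -0.05. Of 16 genes that respond to TGF-beta or to serum response factor 0 were called (median -0.07), with Smad7 at 1.20, Actg2 at 0.76 and Tgfbi at -0.75 in DKO 60 over WT 7. Of 14 epithelial genes 1 fell in DKO over WT, against 4.5% of all genes called: Tjp3, a tight junction scaffold, at -0.82 (SE 0.0655, n = 4 pairs, limma adjusted p = 0.0223). Like every call, it was lost without any 1 pair and with sex as a covariate. The epithelial median was 0.10 in DKO over WT, 0.25 in DKO 60 over WT 7, and -1.15 in T2KO 16 over T1KO 65. In DKO 60 over WT 7, 8 of the 14 were above 0, against 51.8% of all genes. In that pair Rab25, Esrp1 (0.61 in its other probe) and Cldn3 were at 0.96, 0.86 and 0.83. Cdh1, the epithelial cadherin, was at -0.74 there and Cldn4 at -0.57. In the other pairs, Cdh1 was at 3.02 in DKO 51 over WT 6 and at 2.73 in DKO 61 over WT 92. It was at 0.17 in DKO 59 over WT 94 and at -3.42 in T2KO 16 over T1KO 65.

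ES cell state genes were set beside the pair with the largest median ratio of the 10 genes. Of 9 primed epiblast genes, which mark the step after naive pluripotency, 0 were called, and their median was 0.24 over the 4 pairs and 0.89 in DKO 60 over WT 7. In that pair Fgf5 was at 3.65, Otx2 at 1.86 and Pou3f1 at 1.63. In DKO 61 over WT 92, where all 10 matrix genes were below 0, the primed median was 0.36 and Fgf5 was at 1.35. In DKO 59 over WT 94 they were -0.07 and 2.02, and in DKO 51 over WT 6 -0.48 and -0.27. Of 17 pluripotency genes 0 were called, with medians of -0.04 over the 4 pairs and -0.20 in DKO 60 over WT 7. In that pair 7 of the 17 were above 0, against 51.8% of all genes, with Klf5 among them at 0.84. Klf2 was at -1.11, Tbx3 at -1.02 and Tdh at -0.96. The primed list correlated with the 10 genes at 0.55 over the 11 lines and the pluripotency list at -0.31. WT 7 was the lowest line for the primed list too, at -0.80. What part cell state and what part feeder RNA have in the matrix ratios was not tested.

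Lists for other cell types had medians of -0.62 to 0.38 in DKO 60 over WT 7. Of 14 extraembryonic endoderm genes 0 were called (median 0.14, and 0.38 in DKO 60 over WT 7, with Thbd at 0.76 and Hnf4a at -1.20), and the list correlated with the 10 genes at 0.20. Of 5 endothelial, 5 macrophage and 6 skeletal muscle genes tested 0 were called. Their medians in DKO 60 over WT 7 were -0.08, -0.03 and -0.62, with Vwf at 0.74, Pecam1 at -0.51 and Eng at -0.28, Cd68 at -0.73, Itgam at 0.31 (0.06 and -0.10 in its other probes) and Adgre1 at -0.18, and Des at -1.33, Myh3 at 0.90 and Acta1 at -0.86. None of these lists had a gene called in the female minus male comparison, in which 0 (0%) of all genes were called.

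**Figure D4:**
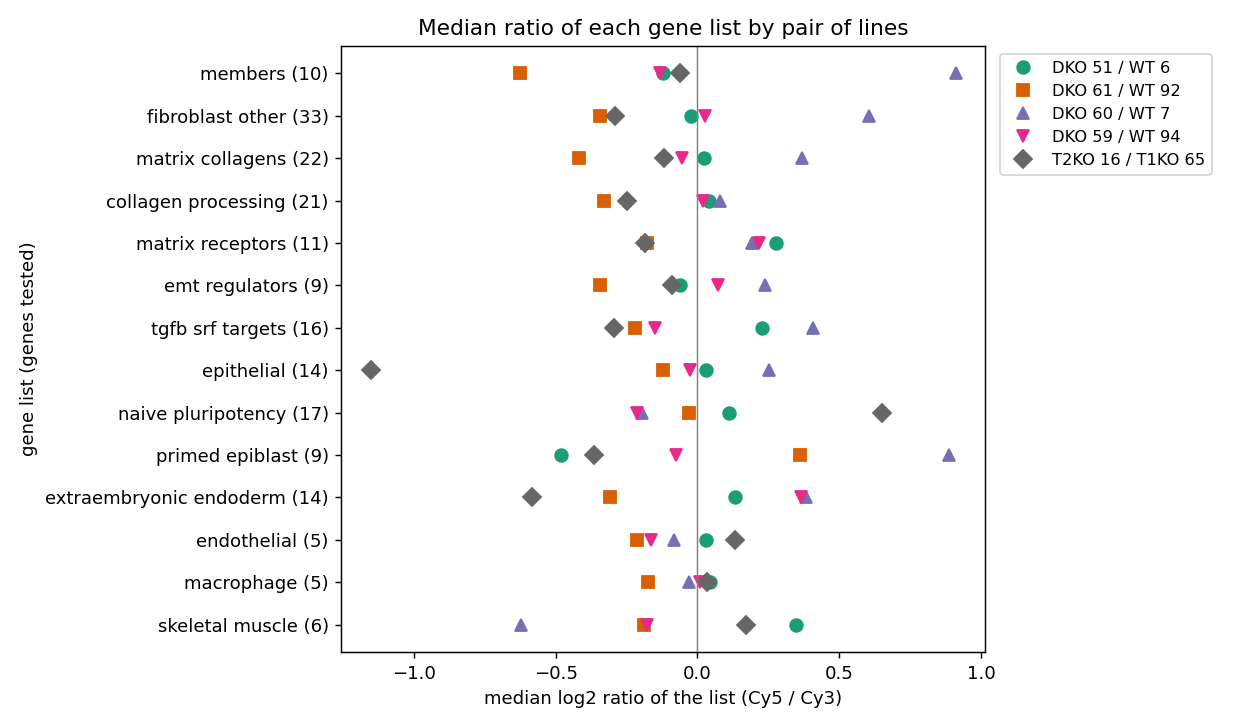
Median log2 ratio (Cy5 over Cy3, horizontal axis) of each gene list in the 4 DKO over WT pairs and in T2KO 16 over T1KO 65, with the number of genes tested in brackets. The 10 genes and the other fibroblast markers are at 0.91 and 0.61 in DKO 60 over WT 7 and at -0.62 and -0.34 in DKO 61 over WT 92.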

How the data were processed

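Per the file headers, each deposited file gives a spot's mean intensity and its median local background for both dyes, as read with Agilent Feature Extraction 10.1.1.1, and the log10 ratio of processed Cy5 over Cy3 that this software wrote. RNA was labelled from 200 ng per sample, per the labels. The authors also deposited processed values for 31595 probes. This matrix is near the log2 scale of Cy5 over Cy3, as found from its slopes of 2.77 to 2.93 on the deposited log10 ratios (r = 0.925 to 0.971 over 10332 probes). How it was normalized and centred is not given in the sources used here. Its column medians were 0.0018 to 0.0075, and it served as an alternative.

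Background was corrected with normexp (offset 50, its parameters estimated after dropping gene spots dimmer than their surroundings, 71 to 122 on each array), ratios were normalized by loess within arrays and channels by Aquantile between arrays, in limma 3.58.1 on R 4.3.3 with the package data.table (version 1.17.8). Control spots and the 173 to 337 outlier spots per array were left out. Probes entered the tests where every array of some group had them well above background in the channel of that group, and a gene was represented by its brightest probe. Of the gene spots, 62.6% to 69.0% were well above background in Cy5 and 55.2% to 61.5% in Cy3. The T1KO 99 levels depend in part on the excluded channel of the same arrays, which the normalization used. The number of arrays limits the precision.

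Repeat arrays were averaged, so that a pair of lines, or a line, is the replicate. Tests were limma's lmFit and eBayes, two-sided, with Benjamini-Hochberg adjustment over all genes tested at 0.05. T1KO and male WT were compared on Cy3 levels, with the female WT lines added for the spread. The fits were tested on simulated data. Alternatives were other background corrections, normalizations, probe rules and filters, the deposited matrix, a random effect of the pair, an intensity trend, sex as a covariate and leaving out each pair, array or line. All 10 genes are named. Of the other lists the text names the genes past the threshold and the 3 with the largest absolute ratio in DKO 60 over WT 7. It also names the 10 genes most like the members by correlation, and Pou5f1, Sox2 and Nanog as ES cell factors. Snai1, Snai2, Cdh2, Cdh1, Cldn4 and Klf5 were named by choice, outside this rule. The members and lists were chosen with earlier results of these data known. Positions are those of the array design on mm9, promoters are from RefSeq on GRCm38.p6, and plots were drawn with matplotlib 3.10.9.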

Additional observations from a re-analysis of the deposited data

Results flagged for a closer look

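Fn1 stood at 15.66 in DKO 51, apart from the other 3 DKO lines, by Dixon's ratio of gap to range (0.830). Over the 30 groups of line levels and ratios so examined, chance flags about 1 in 20.

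The DKO over WT ratios of Lum, Dcn and Thy1 were above 0 in both female pairs and below 0 in both male pairs as means of repeat arrays, with female minus male differences of 1.21, 1.12 and 0.77 on the log2 scale. In the limma fit over all genes these differences had an adjusted p of 0.828 each, and sex and slide cannot be told apart. Some signs lay within the spread of repeat arrays: Thy1 was at 0.045 and -0.018 on the 2 arrays of DKO 59 over WT 94, and Lum at -0.11 and 0.061 on those of DKO 51 over WT 6. Without DKO 60 over WT 7 the differences were 0.59 for Lum, 0.38 for Dcn and 0.32 for Thy1.

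The channel that the labels exclude for a false genotype, which entered no comparison, had a higher median level than every WT line for 9 of the 10 genes, against 30.2% of all genes, in a comparison that crosses dyes. The medians of its 2 arrays were 14.03 for Col1a1, 14.98 for Col1a2, 12.54 for Col3a1, 9.56 for Lum, 11.56 for Dcn, 11.04 for Postn, 14.05 for Thy1, 15.03 for Vim and 15.88 for Fn1. The highest WT lines were at 13.75, 14.67, 11.85, 8.38, 10.82, 10.46, 13.09, 14.99 and 15.75 for the same genes. For Vim and Fn1 the gaps were 0.05 and 0.13, and 1 array of WT 94 read 15.13 for Vim, above both arrays of the excluded sample. S100a6, at 15.47, lay within the WT range. Against T1KO 99 on the same arrays, the median log2 ratio of the 10 genes was 0.82. Of the 10, 9 were above 0, against 52.2% of all genes.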

How the results depend on the processing

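With 4 pairs of lines, 1 array for 2 of them and no dye swap, the design limits what can be called. The number of the 10 genes called in DKO over WT, 1 (S100a6), was 0 with the scanner software's ratios, with median centring, with sex as a covariate and without any 1 pair, and 1 under the other 7 alternatives. S100a6 kept its sign under all 14 alternatives (-0.74 to -0.08, adjusted p 0.0089 to 0.458). No gene of the 10 was called in the other comparisons under any alternative run. Over all genes, the 929 calls of DKO over WT (61.9% higher) became 334 with normexp fitted on all spots (54.5% higher), 670 with the scanner software's ratios (75.4% higher), 6689 with median centring (92.5% higher), 433 with probes well above background in every channel, 537 in the authors' deposited matrix and 1462 with the pair as a random effect (51.7% higher). They became 0 with sex as a covariate (5258 at an unadjusted p under 0.05) and 0 without any 1 pair (3605 to 4868 at an unadjusted p under 0.05). The fewer pairs left by each omission lower the power, and the causes of the other shifts were not tested. The median correlation over the 45 pairs of members was 0.72, against 0.78 centred within dye and 0.62 without WT 92 and DKO 60.

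Sign changes, none past the threshold, were as follows. In DKO over WT, Col1a2 was -0.0034 with normexp on all spots, -0.019 with the scanner software's ratios and -0.011 in the deposited matrix. With median centring Col1a1 was 0.34, Col3a1 0.26, Vim 0.19 and Fn1 0.28. On that scale the medians of genes of like brightness were 0.37, 0.30, 0.44 and 0.56, in the same order. Leaving out 1 pair gave -0.33 to 0.18 for Col1a1, -0.28 to 0.23 for Col1a2, -0.40 to 0.16 for Col3a1, -0.11 to 0.58 for Dcn, -0.20 to 0.25 for Thy1 and -0.077 to 0.42 for Postn, and -0.52 to 0.25 for the female minus male difference of Fn1. The lowest DKO over WT values were without DKO 60 over WT 7 and the highest without DKO 61 over WT 92. In T2KO over T1KO, Col1a1 was 0.14 and Postn 0.014 with normexp on all spots, Postn was 0.039 with the scanner software's ratios, and median centring gave 0.36 for Col1a1, 0.34 for Col1a2, 0.047 for Lum, 0.069 for Dcn, 0.40 for Vim and 0.26 for Postn. Leaving out 1 array gave -0.040 to 0.050 for Col3a1, -0.059 to 0.020 for Lum and -0.051 to 0.0033 for Postn. In T1KO minus male WT, Thy1 was -0.0073 with normexp on all spots and -0.23 without the T1KO 99 arrays. Leaving out 1 line gave -0.58 to 0.19 for Col1a1, -0.46 to 0.16 for Col3a1, -0.43 to 0.11 for Lum, -0.56 to 0.038 for Dcn, -0.23 to 0.34 for Thy1, -0.48 to 0.11 for S100a6, -0.31 to 0.25 for Vim and -0.56 to 0.082 for Postn. Taking the mean of a gene's probes changed no member's values, since each has 1 probe. Lines were already paired on the array, through the ratio. No paired analysis was possible because the replicate numbers, which would give a further block, only count arrays within a group and link no samples across groups.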
